A study of Mus musculus with 15 samples.

Results

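A set of 10 genes of the tumor necrosis factor (TNF) family was followed in activated CD4+ T cells with and without AMPKα1: the ligands Tnfsf4, Cd40lg, Tnfsf11, Tnfsf8, Tnfsf14, Tnf, Lta and Ltb, and the costimulatory receptors Tnfrsf4 and Tnfrsf9. They were chosen by their mouse gene symbol (GENCODE, GRCm38), and all 10 were found among the 55421 genes of the files. Naive CD4+ T cells from C57BL/6 donors with floxed Prkaa1 alleles, the gene of the catalytic AMPKα1 subunit of the energy sensor AMPK, were transferred into Rag2-/- mice, which lack T and B cells of their own, and induced colitis. WT donors were PRKAA1fl/fl without Cre, and KO donors also carried CD4-Cre, which deletes the gene in the thymus from the CD4+CD8+ stage on. The effect of Cre itself therefore cannot be told apart from that of the deletion. The study reports weight loss and severe disease in recipients of WT cells, whereas recipients of KO cells kept their weight and had mild inflammation. Effects of the severity of disease on the T cells therefore cannot be told apart from those of the deletion either. Mice of the study were 6 to 8 weeks old unless stated otherwise. CD4+ T cells were recovered 6 weeks after the transfer, and mRNA was sequenced from 4 WT and 4 KO spleen samples and from 3 WT and 4 KO samples of mesenteric lymph nodes (mLN). Replicate 3 of WT mLN was not among the samples analysed.

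Ligands of the TNF family are trimeric proteins, most of them held in the membrane of the cell that makes them, and their receptors on a neighboring cell recruit TRAF adapter proteins that switch on NF-κB and survival signals. OX40 (Tnfrsf4) and 4-1BB (Tnfrsf9) appear on T cells after activation and prolong their response. CD40L (Cd40lg), RANKL (Tnfsf11) and LIGHT (Tnfsf14) are signals that activated T cells give to dendritic cells, B cells and other partners. TNF, lymphotoxin α (Lta) and lymphotoxin β (Ltb) act in inflammation and in the upkeep of lymphoid tissue.

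Each library held 9363940 to 11283439 reads on genes, and levels are given as counts per 1000000 reads on genes (CPM), with library sizes scaled by TMM. All 10 members were covered, from 20 counts for Tnfsf4 to 16415 for Ltb, so every member passed the filter on low counts in each comparison. Counts carry no molecular identifiers. Prkaa1 was at 53.4, 48.5, 46.6 and 52.5 CPM in WT spleen and 19.96, 21.2, 18.4 and 20.5 CPM in KO spleen. In mLN it was at 50.9, 60.6 and 51.1 CPM in WT and 25.9, 32.3, 21.4 and 32.3 CPM in KO, so every KO library lay below every WT library and none was at 0. The 6 T cell markers (Cd3d, Cd3e, Cd3g, Cd4, Cd5 and Lck) summed to 5440 to 7021 CPM per library. Between the genotypes edgeR called none of them, and DESeq2 called only Cd4, in mLN. Cd4 was higher in KO without overlap in both organs. It was at 962 to 1140 CPM in WT spleen and 1169 to 1226 CPM in KO spleen. In mLN it was at 1007 to 1069 CPM in WT and 1200 to 1302 CPM in KO. Among B cell markers, Pax5 was at 0 to 0.203 CPM in WT mLN and 1.67 to 4.42 CPM in KO mLN, where it was called higher, Ms4a1 was at 0 in every mLN library, and Cd79a was at 0.311 to 1.08 CPM over all libraries. The 2 CD8 markers summed to 1.57 to 11.5 CPM outside KO mLN and to 19.5 to 28.3 CPM in KO mLN. The higher sum came from Cd8a, at 0.305 to 8.46 CPM in WT mLN and 16.5 to 23.1 CPM in KO mLN. Cd8b1 was at 3.05 to 7.01 CPM in WT mLN and 1.49 to 6.99 CPM in KO mLN. Neither edgeR nor DESeq2 called these markers between the genotypes in mLN. The 6 myeloid markers summed to 54.4 to 338 CPM and the 5 stromal and endothelial markers to 66.4 to 134 CPM. Most of the latter sum was Pecam1 (64.6 to 132 CPM). Between the genotypes edgeR called no gene of either list. At an unadjusted edgeR p under 0.05 were 3 myeloid and 2 stromal and endothelial genes in spleen and 1 and 0 in mLN. DESeq2 called 3 myeloid markers higher in KO spleen (Csf1r, Cd68 and Adgre1) and none of the others. Of the 4 NK and innate lymphoid markers, Eomes was called higher in KO in both organs, whereas Klrb1c was at 5.47 to 11.9 CPM in WT mLN and 1.61 to 5.21 CPM in KO mLN, lower without overlap and called by DESeq2 but not by edgeR. Their sum, most of it Eomes, was 57.3 to 78.5 CPM in WT spleen, 100.2 to 117 CPM in KO spleen, 46.1 to 62.6 CPM in WT mLN and 92.0 to 132 CPM in KO mLN. Haemoglobin RNA was at 1769 CPM in WT spleen replicate 3, 816 CPM in WT spleen replicate 4 and 766 CPM in WT mLN replicate 4, and at 16.5 to 109 CPM in the other 12 libraries. In bulk RNA, more cells that make a transcript and more RNA per cell cannot be told apart.

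Tnf, Lta and Ltb lie side by side on mouse chromosome 17. Their sequences are shown because Ltb stood far above Tnf and Lta in level, whereas Tnf and Lta overlapped in every group. The part of these sequences in the levels was not tested. Tnf occupies chromosome 17 from 35199381 to 35202007 (minus strand), Lta chromosome 17 from 35203165 to 35205351 (minus strand, 1157 bases from Tnf) and Ltb chromosome 17 from 35194439 to 35196320 (plus strand, 3060 bases from Tnf), on GRCm38. The 250 bases before each RefSeq start (GRCm38.p6) are given 5′ to 3′ on the strand of the gene. Capitals mark the NF-κB consensus and GGAAAA (the core that NFAT proteins bind, TTTTCC on the other strand) on either strand, and TATAAA on the strand of the gene.
Tnf promoter, chr17:35202008-35202257: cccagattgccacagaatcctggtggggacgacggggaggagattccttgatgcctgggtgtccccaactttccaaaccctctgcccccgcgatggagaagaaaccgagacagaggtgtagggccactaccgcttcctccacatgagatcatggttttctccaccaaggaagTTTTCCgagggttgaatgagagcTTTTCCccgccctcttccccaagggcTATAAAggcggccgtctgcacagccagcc
Lta promoter, chr17:35205352-35205601: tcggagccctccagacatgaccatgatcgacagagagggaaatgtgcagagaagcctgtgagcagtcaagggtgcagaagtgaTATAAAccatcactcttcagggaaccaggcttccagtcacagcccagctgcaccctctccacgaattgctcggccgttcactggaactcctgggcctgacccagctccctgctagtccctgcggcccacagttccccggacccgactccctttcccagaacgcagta
Ltb promoter, chr17:35194257-35194506: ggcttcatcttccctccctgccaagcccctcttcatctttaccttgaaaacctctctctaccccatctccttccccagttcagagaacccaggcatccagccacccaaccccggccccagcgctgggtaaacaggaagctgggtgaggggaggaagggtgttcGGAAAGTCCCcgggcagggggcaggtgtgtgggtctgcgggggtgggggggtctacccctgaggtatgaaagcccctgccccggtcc
Counted back from the start, Tnf had GGAAAA on the opposite strand at −78 to −73 and −55 to −50 and TATAAA at −29 to −24, whereas Ltb had 1 NF-κB match at −87 to −78 and no TATAAA. Lta had only a TATAAA at −167 to −162. RefSeq promoters were found for 8 of the 10 members, all but Tnfsf4 and Cd40lg. At the first start listed for each gene, an NF-κB match stood in 1 of 8 members (12.5%) and in 3.75% of 27025 promoters, GGAAAA in 2 of 8 (Tnf and Tnfrsf9, 25%) and in 20.6% of promoters, and TATAAA in 2 of 8 (25%) and in 8.12% of promoters. A match is a match of letters and was not read as a binding site.

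Transcripts of Tnf and Lta also carried, in the 3′ untranslated region, the AU-rich nonamer TTATTTATT, an element through which ZFP36 proteins are known to shorten the life of mRNA. It occurred 5 times in Tnf and 1 time in Lta, counting overlapping copies, in no other member, and in 8.01% of 11893 tested genes. A window of 29 bases in each transcript is shown in DNA letters with the nonamers in capitals.
Tnf window: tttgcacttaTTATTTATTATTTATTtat
Lta window: aaaagttaagTTATTTATTtatagagaat

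Per kb of exon, Ltb was the most abundant member in all 4 groups, with means of 701 (WT spleen), 754 (KO spleen), 748 (WT mLN) and 854 (KO mLN) CPM per kb. Tnfsf4 was the least abundant, with 2.18, 5.58, 2.17 and 5.96 CPM per kb in the same order of groups. No library range of either gene overlapped that of its neighbor in the order of levels. In WT cells of both organs Tnfrsf4 held rank 2 and Cd40lg rank 3, with ranges that did not overlap. In KO spleen the order of the mean levels was the opposite, Cd40lg at 157 and Tnfrsf4 at 122 CPM per kb, and in KO mLN Tnfrsf4 was at 196 and Cd40lg at 173 CPM per kb. The ranges of this pair overlapped in both KO groups. Tnfsf8 held rank 4 in every group. Tnfsf14, Lta, Tnf, Tnfrsf9 and Tnfsf11 followed with means of 16.0 to 49.1 CPM per kb, and most neighbors among them overlapped in their library ranges.

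**Figure D1:**
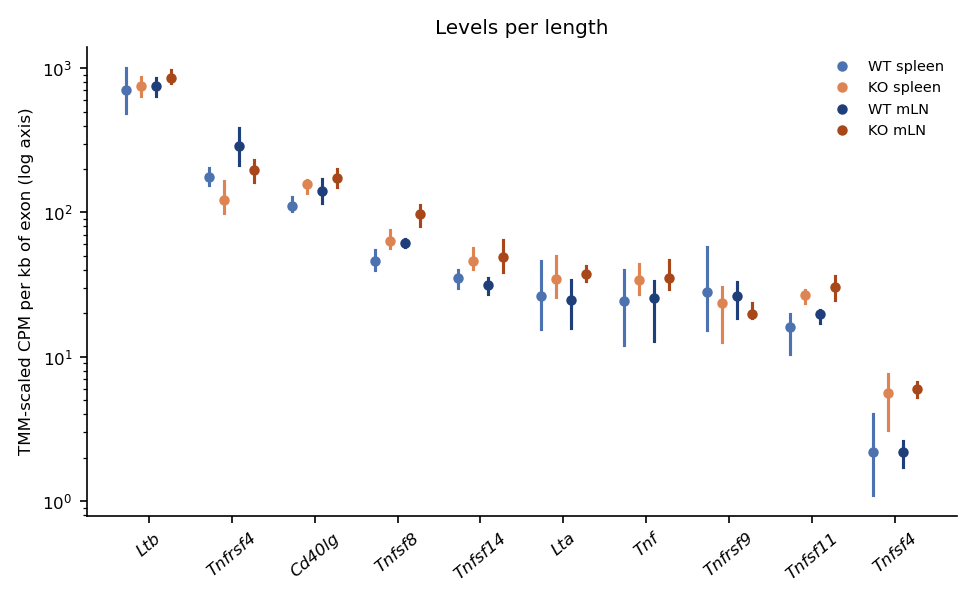
Levels of the 10 members per length, as TMM-scaled CPM per kb of exon on a log axis, with a dot for the mean of each group and a line from the lowest to the highest library. Ltb stands above and Tnfsf4 below all other members in every group.

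To ask whether the loss of AMPKα1 changes these signals, KO was compared with WT within each organ. Spleen and mLN samples may come from the same mice, so agreement between the organs is not independent. All 8 ligands had fitted levels above WT and both receptors fitted levels below it, whether or not they passed the test, in spleen as in mLN, where 49.3% and 49.6% of all tested genes were higher in KO. In spleen the sign of Ltb turned without WT replicate 2 or 4 (log2 fold changes −0.036 and −0.030) and that of Tnfrsf9 without WT replicate 3 (0.35). The wider TNF family, described below, did not share this split, except that most of its few ligands tested in mLN were higher in KO. In spleen 1 of 5 other tested ligands and 13 of 18 other tested receptors were above WT, and in mLN 3 of 4 and 9 of 17. The median log2 fold change of the 8 member ligands was 0.48 in spleen and 0.61 in mLN, beside medians of −0.0041 and −0.0038 over all genes. Few of these differences passed the test. At an edgeR adjusted p under 0.05, Cd40lg rose in spleen (1 of 10 members, where 1.3% of 14254 genes were called, 0.547% higher in KO), and Tnfsf4 and Tnfsf8 rose in mLN (2 of 10, where 0.641% of 14359 genes were called, 0.348% higher in KO). The WT and KO libraries did not overlap for Cd40lg, Tnfsf8, Tnfsf11 and Tnfsf14 in spleen and for Tnfsf4, Tnfsf8, Tnfsf11 and Tnfsf14 in mLN, each time with KO higher, which held for 5.9% and 6.62% of all genes. DESeq2, run as an alternative, called 6 members in spleen (Tnfsf4, Cd40lg, Tnfsf11, Tnfsf8 and Tnfsf14 higher and Tnfrsf4 lower, with 5.89% of genes called) and 4 in mLN (Tnfsf4, Tnfsf11, Tnfsf8 and Tnfsf14 higher, with 4.09% called).

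**Figure D2:**
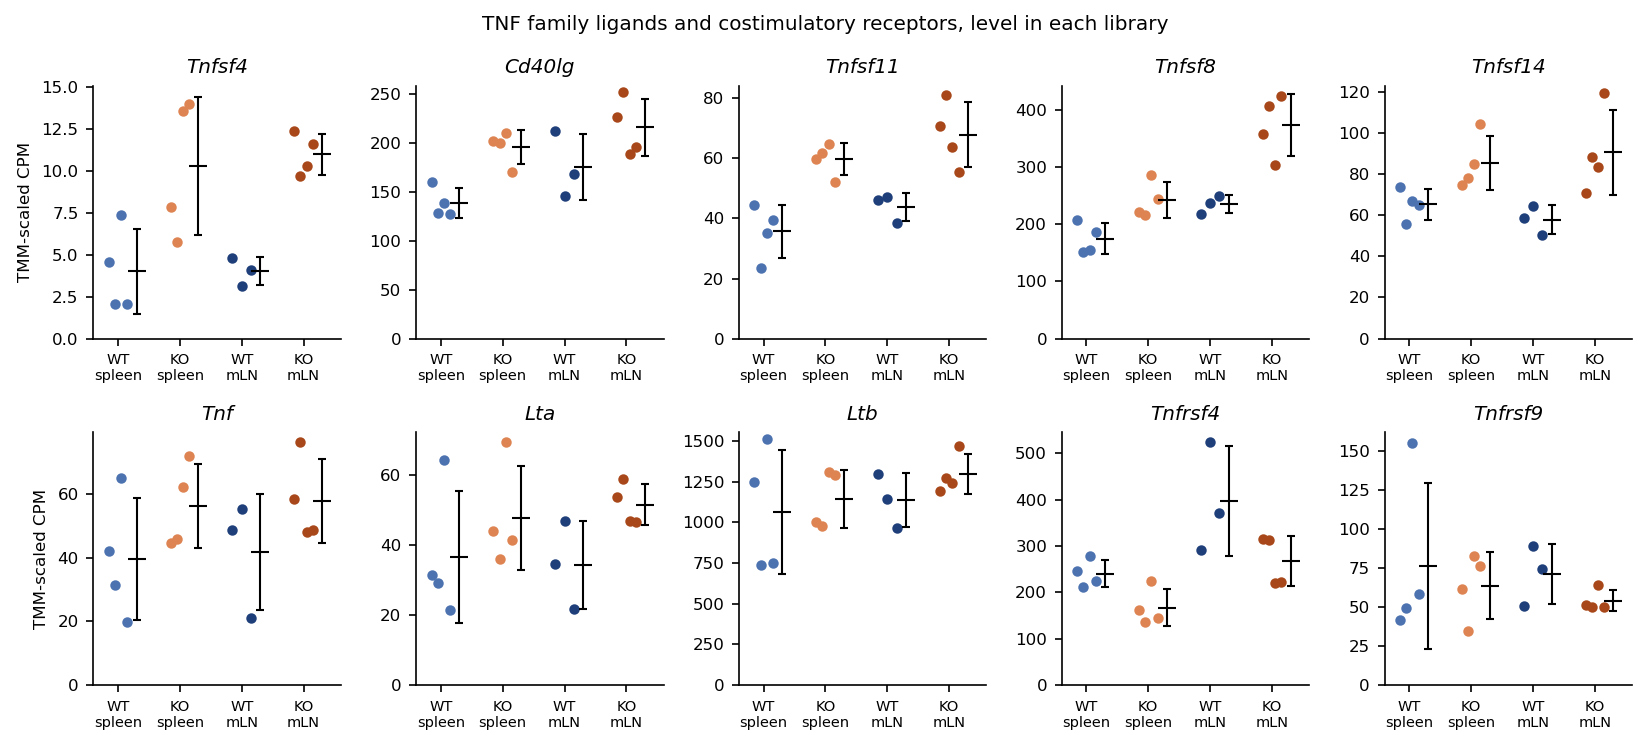
TMM-scaled CPM of each member in each library, with every axis from 0, points for libraries and a bar for the mean ± SD of the group (n = 4, and 3 in WT mLN). Tnfsf4, Tnfsf8, Tnfsf11 and Tnfsf14 in mLN show all KO points above all WT points.

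The ligand and the receptor of the OX40 pair differed in opposite directions, and of these differences only the rise of the ligand in KO mLN passed the test. Tnfsf4 (OX40L, ENSMUSG00000026700, chromosome 1 from 161395409 to 161418410) is best known on dendritic and B cells and is also made by activated T cells. The mLN libraries were at 4.80, 3.15 and 4.06 CPM in WT and 12.4, 9.66, 10.3 and 11.6 CPM in KO, so every KO library lay above every WT library. This was a 2.74-fold rise (log2 fold change 1.45, SE 0.25, edgeR adjusted p = 0.0357). In spleen the libraries were at 4.57, 2.06, 7.36 and 2.04 CPM in WT and 7.82, 5.75, 13.5 and 13.99 CPM in KO. KO replicate 2 there lay below WT replicate 3, and the difference of similar size did not pass the test (log2 fold change 1.35, SE 0.43, edgeR adjusted p = 0.124). Without WT spleen replicate 3 it did (log2 fold change 1.83, edgeR adjusted p = 0.0488).

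The call of Tnfsf4 in mLN remained without WT replicate 1 (edgeR adjusted p = 0.0492) and was lost without WT replicate 2 or 4 (0.135 each) and without KO replicate 1, 2, 3 or 4 (0.0504, 0.0662, 0.0796 and 0.0913), with log2 fold changes of 1.31 to 1.60 throughout. Of the 7 dendritic cell markers edgeR called none between the genotypes, with 2 in each organ at an unadjusted p under 0.05, and DESeq2 called H2-Ab1 higher in KO spleen and Siglech higher in KO mLN. Their sum, mostly Cd74 and H2-Ab1, was 198 to 410 CPM in WT spleen and 339 to 649 CPM in KO spleen, and 199 to 427 CPM in WT mLN and 336 to 786 CPM in KO mLN. In mLN, where Tnfsf4 was called, Itgax was at 1.77 to 5.37 CPM in WT and 5.83 to 10.1 CPM in KO, and Siglech at 0.102 to 1.57 CPM in WT and 1.88 to 8.19 CPM in KO, so both were higher in every KO library. The WT and KO mLN ranges overlapped for Zbtb46 (11.3 to 14.2 and 11.8 to 21.2 CPM), Xcr1 (5.21 to 11.7 and 6.42 to 8.31 CPM) and Flt3 (0 to 0.576 and 0 to 1.47 CPM), as they did for Cd74 and H2-Ab1. In spleen H2-Ab1 was at 20.6 to 31.03 CPM in WT and 37.8 to 102 CPM in KO. The part of these cells, and of the NK and innate lymphoid markers, in the ligand levels was not tested.

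Its receptor Tnfrsf4 (OX40, ENSMUSG00000029075, chromosome 4 from 156013843 to 156016612) was the more abundant of the pair per kb of exon in every group. In spleen it was at 246, 212, 279 and 225 CPM in WT and 161, 135, 224 and 145 CPM in KO. The other 3 KO libraries lay below all WT libraries, whereas KO replicate 3 lay among them (log2 fold change −0.53, SE 0.15, edgeR adjusted p = 0.100). Without KO spleen replicate 3 the difference passed the test (log2 fold change −0.71, edgeR adjusted p = 0.0473). In mLN the libraries were at 291, 525 and 372 CPM in WT and 314, 313, 220.2 and 221 CPM in KO. WT replicate 2 stood far above the others, and the groups overlapped (log2 fold change −0.57, SE 0.20, edgeR adjusted p = 0.205).

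**Figure D3:**
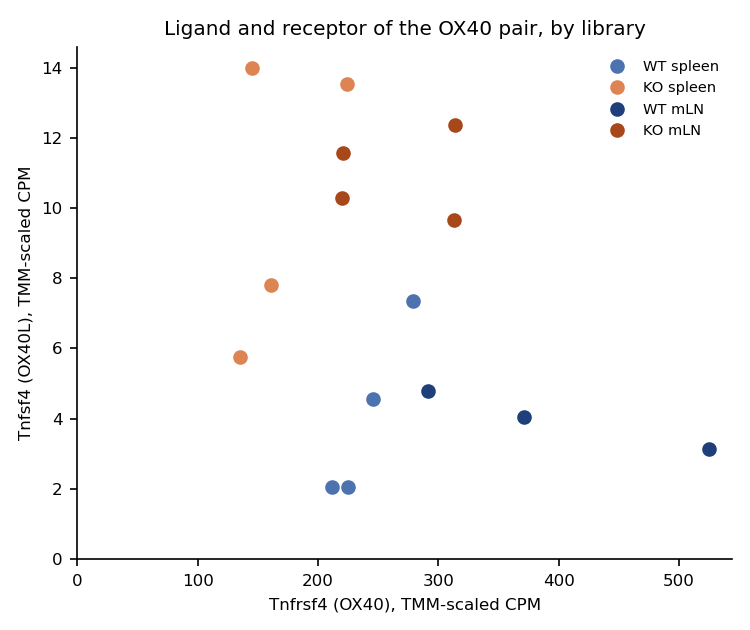
Tnfsf4 (OX40L) against Tnfrsf4 (OX40) in each library, both as TMM-scaled CPM on linear axes from 0, with a point per library in the color of its group. The 4 KO mLN libraries sit between 9.66 and 12.4 CPM of Tnfsf4, above the 3 WT mLN libraries at 3.15 to 4.80 CPM.

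Tnfsf8 (CD30L, ENSMUSG00000028362, chromosome 4 from 63831308 to 63861347), the ligand of CD30, was higher in KO without overlap in both organs. In mLN it was at 218, 237 and 249.8 CPM in WT and 359, 408, 304 and 425 CPM in KO, a 1.59-fold rise (log2 fold change 0.67, SE 0.12, edgeR adjusted p = 0.0387). In spleen it was at 208, 151, 155 and 187 CPM in WT and 222, 216, 286 and 245 CPM in KO, which did not pass the test (log2 fold change 0.47, SE 0.12, edgeR adjusted p = 0.0781). The mLN call remained without KO replicate 1 (edgeR adjusted p = 0.0487) and was lost without WT replicate 1, 2 or 4 (0.0833, 0.141 and 0.135) or KO replicate 2, 3 or 4 (0.0773, 0.0558 and 0.0896), while the log2 fold change stayed between 0.61 and 0.76. Fitting all 15 samples together also called Tnfsf8 in mLN, but not Tnfsf4.

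Cd40lg (ENSMUSG00000031132, chromosome X from 57212143 to 57224042), the T cell signal that licenses dendritic cells and drives B cell help, rose 1.41-fold in KO spleen. Its libraries were at 160.0, 128, 139 and 127 CPM in WT and 202, 200.3, 211 and 170.4 CPM in KO, with the lowest KO library above the highest WT library (log2 fold change 0.50, SE 0.09, edgeR adjusted p = 0.0444). In mLN they were at 212, 145 and 168 CPM in WT and 226, 252, 189 and 196 CPM in KO. Here WT replicate 1 lay among the KO libraries and the difference did not pass the test (log2 fold change 0.30, SE 0.14, edgeR adjusted p = 0.319). The spleen call remained without WT replicate 1 or 3 (edgeR adjusted p = 0.0376 and 0.0453). It was lost without WT replicate 2 or 4 (0.0827 and 0.0779) and without KO replicate 1, 2, 3 or 4 (edgeR adjusted p = 0.0736, 0.116, 0.106 and 0.0519).

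Tnfsf11 (RANKL, ENSMUSG00000022015, chromosome 14 from 78277445 to 78308043) supports dendritic cell survival and the formation of osteoclasts. In spleen it was at 44.5, 23.5, 35.2 and 39.5 CPM in WT and 59.98, 61.96, 64.7 and 52.3 CPM in KO, and in mLN at 46.2, 47.02 and 38.5 CPM in WT and 70.9, 81.3, 63.9 and 55.7 CPM in KO. The genotypes did not overlap in either organ, yet neither difference passed the test (spleen log2 fold change 0.74, SE 0.16, edgeR adjusted p = 0.0571). The mLN values were close to these (log2 fold change 0.63, SE 0.15, edgeR adjusted p = 0.0832).

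Tnfsf14 (LIGHT, ENSMUSG00000005824, chromosome 17 from 57189492 to 57194177) binds HVEM and the lymphotoxin β receptor. It was at 73.6, 55.6, 67.1 and 65.1 CPM in WT spleen and 74.7, 78.2, 84.8 and 104 CPM in KO spleen, with the groups just apart (log2 fold change 0.39, SE 0.12, edgeR adjusted p = 0.107). The mLN libraries were at 58.5, 64.6 and 50.6 CPM in WT and 70.9, 88.5, 83.7 and 119 CPM in KO, again without overlap and short of the threshold (log2 fold change 0.65, SE 0.17, edgeR adjusted p = 0.114).

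**Figure D4:**
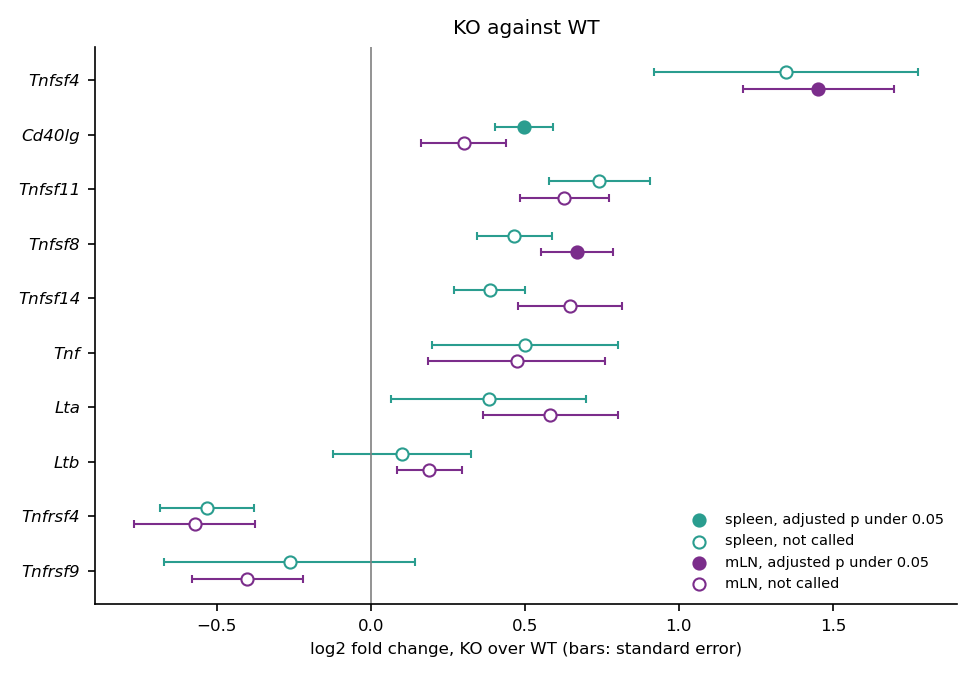
Log2 fold change of KO over WT for each member in spleen and in mLN, with bars for the standard error and filled dots for an edgeR adjusted p under 0.05. The 8 ligands lie to the right of 0 and the 2 receptors to the left in both organs, and 3 of the 20 dots are filled.

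None of the 3 genes of the TNF locus was called between the genotypes. Tnf (ENSMUSG00000024401) was at 42.1, 31.4, 64.98 and 19.8 CPM in WT spleen and 44.8, 45.9, 62.1 and 71.9 CPM in KO spleen. In mLN it was at 48.8, 55.2 and 20.9 CPM in WT and 58.3, 76.5, 47.99 and 48.8 CPM in KO, and the genotypes overlapped in both organs (spleen log2 fold change 0.50, SE 0.30, edgeR adjusted p = 0.380). The mLN difference was of similar size (log2 fold change 0.47, SE 0.29, edgeR adjusted p = 0.473). WT spleen replicate 4 and WT mLN replicate 4, both rich in haemoglobin RNA, held the lowest Tnf of their groups, whereas WT spleen replicate 3, the richest, held the highest.

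Lta (ENSMUSG00000024402) was at 31.4, 28.99, 64.1 and 21.4 CPM in WT spleen and 44.03, 35.99, 69.4 and 41.4 CPM in KO spleen, with WT replicate 3 and KO replicate 3 high (log2 fold change 0.38, SE 0.32, edgeR adjusted p = 0.537). The mLN libraries were at 34.4, 46.7 and 21.7 CPM in WT and 53.8, 58.7, 46.8 and 46.6 CPM in KO, where the groups overlapped by a single pair of close values (log2 fold change 0.58, SE 0.22, edgeR adjusted p = 0.238). Ltb (ENSMUSG00000024399) was at 1249.9, 738, 1510.1 and 752 CPM in WT spleen and 1001, 976, 1307 and 1288 CPM in KO spleen. Its WT spleen libraries spanned the whole KO range (log2 fold change 0.10, SE 0.22, edgeR adjusted p = 0.836). In mLN Ltb was at 1295, 1146 and 963 CPM in WT and 1192, 1272, 1242 and 1471 CPM in KO, and the ranges overlapped (log2 fold change 0.19, SE 0.11, edgeR adjusted p = 0.431). Lta and Ltb each contain an annotated microRNA gene (Mir6974 and Mir6973a). Reads that match both genes at such an overlap fall among the ambiguous reads, which were left out of these levels.

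Tnfrsf9 (4-1BB, ENSMUSG00000028965, chromosome 4 from 150914562 to 150946102) was not called in either organ. In spleen it was at 41.8, 49.2, 156 and 58.6 CPM in WT and 61.8, 34.6, 82.97 and 76.2 CPM in KO (log2 fold change −0.26, SE 0.41, edgeR adjusted p = 0.762). Without WT replicate 3, the highest library of all, its sign turned (log2 fold change 0.35, edgeR adjusted p = 0.447). In mLN it was at 50.8, 89.2 and 74.3 CPM in WT and 51.6, 50.3, 64.4 and 50.4 CPM in KO, and the groups overlapped (log2 fold change −0.40, SE 0.18, edgeR adjusted p = 0.314). Tnfrsf9 overlaps Camta1 on the opposite strand, and the strand counted is not given in the sources used here, so its counts are uncertain.

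The 3 libraries rich in haemoglobin RNA were all WT, and the comparisons were repeated without them. No member then passed the test in spleen or mLN. The log2 fold change of Tnfsf4 was 1.63 in spleen and 1.46 in mLN, that of Tnfsf8 0.43 and 0.71, and that of Cd40lg 0.44 and 0.27. All 8 ligands kept higher fitted levels in KO in both organs, and Tnfrsf9 turned to 0.49 in spleen. This alternative was chosen after seeing the data.

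Between the organs, in fits that did not pair same-numbered samples, Tnfsf8 and Tnfrsf4 were the members called higher in mLN, in WT as in KO cells. Of all tested genes 20.5% were called in WT and 25.3% in KO, 9.7% and 11.4% higher in mLN, so that 2 of 10 members is not above the share of all genes called. Tnfsf8 was 1.33-fold higher in WT mLN than in WT spleen (log2 fold change 0.42, SE 0.12, edgeR adjusted p = 0.0416) and 1.52-fold higher in KO mLN than in KO spleen (log2 fold change 0.61, SE 0.11, edgeR adjusted p = 0.00266). The organs did not overlap in either genotype, as for 16.1% of genes higher in mLN in WT and 14.2% in KO. Tnfrsf4 was 1.64-fold higher in WT mLN, without overlap (log2 fold change 0.71, SE 0.18, edgeR adjusted p = 0.0242), and 1.58-fold higher in KO mLN, where KO spleen replicate 3 lay above 2 mLN libraries (log2 fold change 0.66, SE 0.17, edgeR adjusted p = 0.0146). In KO cells both calls remained whichever library was left out, with adjusted p up to 0.0121 for Tnfsf8 and 0.0466 for Tnfrsf4.

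In WT cells the calls depended on single libraries. Tnfsf8 was not called without WT spleen replicate 2 or 3 (edgeR adjusted p = 0.100 and 0.0770) or WT mLN replicate 1, 2 or 4 (0.0543, 0.102 and 0.120). Tnfrsf4 was not called without WT spleen replicate 1 or 2 (0.0605 and 0.0680) or WT mLN replicate 2 or 4 (edgeR adjusted p = 0.0689 and 0.0508). Same-numbered WT samples deviated together, and with the replicate number as a block, 5 of 10 members were called higher in WT mLN, where that fit called 30% of all genes, 14.6% higher in mLN. They were Tnfsf8 (edgeR adjusted p = 0.0259), Tnfrsf4 (0.00701), Cd40lg (0.0104), Tnfrsf9 (0.0135) and Ltb (0.0316). That fit takes nothing from WT spleen replicate 3, which has no partner. Without the libraries rich in haemoglobin RNA no member passed the test in WT (Tnfsf8 0.33 and Tnfrsf4 0.82 on the log2 scale).

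In the fits without a block, the other 8 members were not called between the organs. Among these fits, Cd40lg had the largest uncalled difference in WT cells (log2 fold change 0.33, SE 0.13, edgeR adjusted p = 0.109) and Tnfrsf9 in KO cells (log2 fold change −0.26, SE 0.22, edgeR adjusted p = 0.424). Without KO spleen replicate 2 the latter passed the test (log2 fold change −0.46, edgeR adjusted p = 0.0329). Tnfsf4 had nearly equal group means in the organs, at 4.01 ± 2.53 and 4.002 ± 0.827 CPM in WT spleen and mLN (SD, n = 4 and 3) and at 10.3 ± 4.12 and 10.97 ± 1.22 CPM in KO spleen and mLN (SD, n = 4 each).

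**Figure D5:**
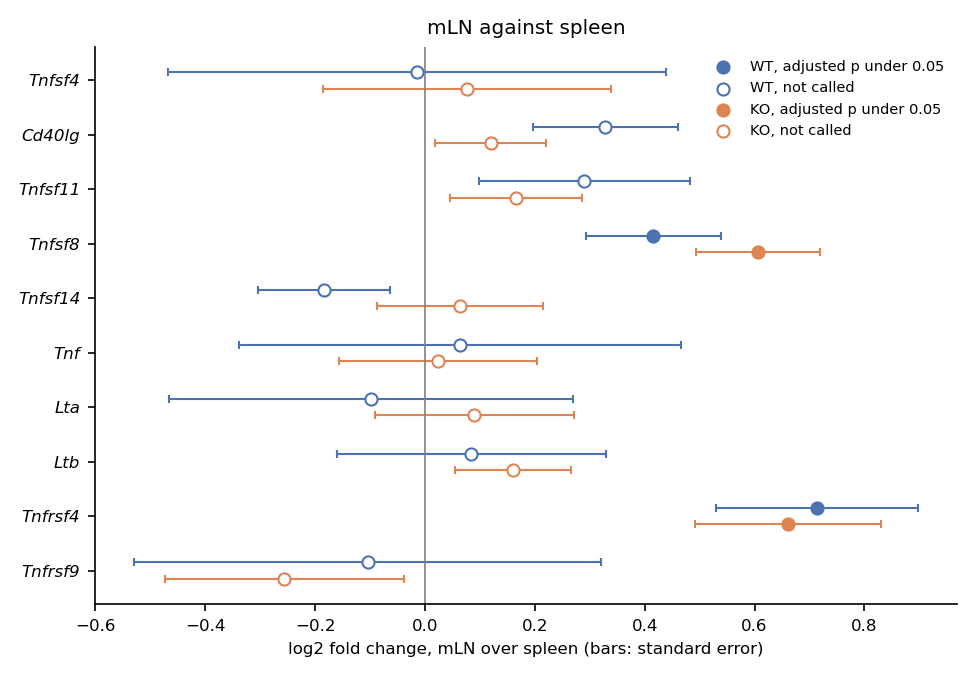
Log2 fold change of mLN over spleen for each member in WT and in KO cells, from fits without a replicate block. Bars are the standard error and filled dots mark an edgeR adjusted p under 0.05. Only Tnfsf8 and Tnfrsf4 have filled dots, in both genotypes and to the right of 0.

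Whether the genotype effect differed between the organs was tested as an interaction over all 15 samples. No member was called (edgeR, log2 differences from −0.20 for Cd40lg to 0.26 for Tnfsf14), and none had an unadjusted p under 0.05. Across all 15438 genes edgeR called 0 as well, with 652 at an unadjusted p under 0.05, and DESeq2 called 4 (0.0259%). The spleen call of Cd40lg and the mLN calls of Tnfsf4 and Tnfsf8 are therefore not shown to be particular to an organ.

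The remaining genes of the pathway were described by fixed lists. Of 10 other TNF family ligands, 5 passed the count filter in spleen and 4 in mLN, and neither edgeR nor DESeq2 called one between the genotypes, with 1 and 2 at an unadjusted edgeR p under 0.05. Tnfsf10 (TRAIL, an inducer of apoptosis) was lower in mLN than in spleen, at 56.2 ± 11.3 against 102 ± 33.5 CPM in WT (SD, n = 3 and 4, edgeR adjusted p = 0.0407) and at 64.8 ± 6.66 against 98.1 ± 12.6 CPM in KO (SD, n = 4 each, adjusted p = 0.00169). Tnfsf13b (BAFF, a B cell survival factor) rose 1.37-fold in KO mLN over KO spleen (edgeR adjusted p = 0.0209). When a library was left out, the call of Tnfsf10 remained in 1 of 7 fits in WT and 8 of 8 in KO, and that of Tnfsf13b in 5 of 8.

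Of 26 other TNF receptor family genes, 18 were tested in spleen and 17 in mLN, and edgeR called none between the genotypes, with 3 and 2 at an unadjusted p under 0.05. DESeq2 called Tnfrsf18 in spleen, where all KO libraries lay below all WT libraries (log2 fold change −0.35, edgeR adjusted p = 0.0641), and Fas in mLN (log2 fold change 0.62, edgeR adjusted p = 0.162). Between the organs edgeR called 4 of 18 in WT and 8 of 18 in KO, beside the 20.5% and 25.3% of all genes. Tnfrsf18 (GITR), a costimulatory receptor of T cells, rose in mLN 1.66-fold in WT and 1.51-fold in KO (edgeR adjusted p = 0.00566 and 0.00544). Tnfrsf13b (TACI) rose in mLN in both as well (log2 fold changes 0.78 and 0.91), a call that remained in 2 of 7 fits without a library in WT and 8 of 8 in KO. Cd40, the receptor of Cd40lg, was called higher in WT mLN but rested on 1 to 14 counts per WT spleen library and 14 to 72 per WT mLN library, and its call remained in 2 of 7 fits. Tnfrsf21 was called lower in mLN in both genotypes, at 0 to 5 counts per mLN library and 12 to 75 per spleen library. In KO mLN, Tnfrsf26, Tnfrsf13c, Cd27 and Tnfrsf8, the receptor of Tnfsf8, were also called higher than in KO spleen and Tnfrsf1a, the main TNF receptor, lower. The calls of Cd27 and Tnfrsf8 remained in 2 of 8 fits, that of Tnfrsf1a in 5, that of Tnfrsf13c in 6 and that of Tnfrsf26 in 8.

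Among 20 genes that act downstream of TNF receptors, edgeR called none in spleen, with 5 at an unadjusted p under 0.05, and 2 fell in KO mLN. DESeq2 called Traf5 and Fadd in spleen, and Traf5 and Cyld besides those 2 in mLN. Traf5 was higher and Fadd lower in every KO library in both organs, with log2 fold changes of 0.38 and 0.47 for Traf5 and −0.61 and −0.64 for Fadd in spleen and mLN. Tnfaip3 (A20), an NF-κB target that shuts off the signal, was at 194, 199.9 and 211 CPM in WT mLN and 120.1, 145, 113 and 100.1 CPM in KO mLN (log2 fold change −0.75, SE 0.12, edgeR adjusted p = 0.0326). Birc3 (cIAP2), a ubiquitin ligase of the TRAF complex, was at 123, 145 and 132 CPM in WT mLN and 94.04, 90.6, 95.6 and 95.5 CPM in KO mLN (log2 fold change −0.51, SE 0.09, edgeR adjusted p = 0.0422). The genotypes did not overlap for either gene in mLN. The call of Tnfaip3 remained in 3 of 7 fits that left out a library and that of Birc3 in 1 of 7. Traf3, an adapter that restrains noncanonical NF-κB, was lower in mLN than in spleen in WT (log2 fold change −0.65) and KO (log2 fold change −0.81). In KO mLN, Tnfaip3, Map3k14 and Cyld were also lower and Tradd higher than in KO spleen, with calls that remained in 8, 5, 1 and 3 of 8 fits in this order.

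A list of 9 genes of ligand shedding and mRNA decay was followed because TNF and other ligands are cut from the membrane by ADAM17 and because Tnf and Lta carry AU-rich elements. In spleen, Zfp36l1 rose in KO (log2 fold change 0.37, SE 0.07, edgeR adjusted p = 0.0391), a call that remained in 1 of 8 fits without a library. Its difference in mLN was of similar size, without overlap, and did not pass the test (log2 fold change 0.35, SE 0.08, edgeR adjusted p = 0.0929). In mLN, Adam17 rose from 117, 101 and 93.02 CPM in WT to 156, 152, 153 and 163 CPM in KO (log2 fold change 0.59, SE 0.10, edgeR adjusted p = 0.0326). Zfp36l2, a ZFP36 family protein, fell from 172, 419 and 351 CPM in WT to 100.1, 124, 111 and 92.4 CPM in KO (log2 fold change −1.56, SE 0.24, edgeR adjusted p = 0.0326). Neither pair of groups overlapped, and each of these mLN calls remained in 2 of 7 fits without a library. Zfp36l2 in spleen was at 289.7, 758, 675 and 887 CPM in WT and 283, 313, 191 and 237 CPM in KO (log2 fold change −1.35, SE 0.29, edgeR adjusted p = 0.0524). DESeq2 called Zfp36l1 and Zfp36l2 in both organs and Adam17 in mLN. The 2 members with the nonamer, Tnf and Lta, had fitted levels above WT in the same comparisons but were not called. A link of their levels to these decay genes was not tested. In KO mLN, Zfp36l2, Zfp36l1, Rhbdf2, Zc3h12a and Adam10 were lower than in KO spleen, and Zfp36l1, Rhbdf2 and Adam10 were also lower in WT mLN. The WT call of Adam10 remained in 3 of 7 fits and the other 7 organ calls in every fit.

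The CD28 family receptors Cd28 and Icos were not called between the genotypes by edgeR or DESeq2, with 1 in spleen and 0 in mLN at an unadjusted p under 0.05. Icos, a costimulatory receptor of activated and follicular helper T cells, rose in mLN like Tnfrsf4 and Tnfsf8, 2.32-fold in WT and 2.42-fold in KO (edgeR adjusted p = 0.000797 and 1e-05), without overlap. Cd28 rose 1.31-fold in KO mLN over KO spleen (edgeR adjusted p = 0.00330).

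The genes most alike in pattern to the called ligands were taken by Euclidean distance of centered log2 CPM over the 15 samples among 15438 genes. They were Plod2 and Serpine2 for Tnfsf4 (distances 1.73 and 1.74), Emsy and Rpl7l1 for Cd40lg (0.622 and 0.639) and Mrps6 and Lgals3bp for Tnfsf8 (0.743 and 0.827). The distance of each member from a flat profile was 3.38, 1.13 and 1.68.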

How the data were processed

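mRNA of CD4+ T cells was profiled in 15 samples, grouped by genotype and organ as their titles state. The authors aligned single-end reads to GRCm38 with STAR 2.6.1a and GENCODE annotation, used DESeq2 1.22.2 for their tests, and deposited raw counts per gene without normalization. The strand setting of the counting is not given in the sources used here. Of the uniquely aligned reads, 58.4% to 63.4% were assigned to no annotated feature, and multimapping reads were not counted. Rows that summarise unmapped, multimapping, unassigned and ambiguous reads were left out. Symbols and exon lengths came from GENCODE on the same build (55240 of 55421 identifiers matched).

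Counts were tested with edgeR 4.0.16 in R 4.3.3 (filterByExpr, TMM, quasi-likelihood test, Benjamini-Hochberg adjustment over all genes tested, calls at an adjusted p under 0.05 with no fold minimum), for KO against WT in each organ, mLN against spleen in each genotype and the interaction of both. Fold changes and standard errors are those of the fit, CPM those of TMM-scaled libraries. DESeq2 1.42.0, RLE factors, library totals, other filters, a fold minimum of 1 on the log2 scale, a single fit of all 15 samples, a block for the replicate number, each library left out and, chosen after seeing the data, the 3 libraries rich in haemoglobin RNA left out were alternatives. Python 3.11.15, pandas 2.3.3 and matplotlib 3.10.9 served the other steps.

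The study describes 1 experiment with 4 mice per group, so samples of a group were taken as separate mice. Whether same-numbered spleen and mLN samples share a mouse is not given in the sources used here. Correlations of the deviations of same-numbered samples were 0.243 to 0.291 between organs in WT (3 pairs), which was taken as pairing, 0.0258 to 0.259 in KO (4 pairs), and −0.21 to 0.146 and −0.0531 to 0.00338 between genotypes in spleen and mLN. On simulated counts with 200 genes changed by a log2 fold of 1, the test recovered 84.5% in spleen (14245 genes) and 69% in mLN (14311 genes), with 6.11% and 5.48% of calls on unchanged genes. The simulation gave every gene the same dispersion, and its changes were larger than most member differences between the genotypes. These rates therefore need not hold for the members. The members, lists and tests were chosen with earlier results of these data known. Named genes are the 10 members, Prkaa1, up to 5 called genes of each other list and comparison, and the 2 genes nearest in pattern to members called between the genotypes. Tnfrsf1a, Cd27 and Tnfrsf8, which complete the edgeR calls of their list, and Fas, Traf5 and Fadd, called by DESeq2 alone, fall outside this rule and were chosen after their values were seen.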

Additional observations from a re-analysis of the deposited data

Results flagged for a closer look

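Tnfrsf9 was far from the rest of its group in 2 libraries. In WT spleen, replicate 3 was at 155.57 CPM and the next library at 58.6 CPM. In KO mLN, replicate 3 was at 64.4 CPM and the next library at 51.6 CPM. The gap took up 0.852 and 0.909 of the range of the group, above Dixon's 95% critical value for 4 samples. Of 30 groups of members tested, 2 were flagged, and chance flags about 1 in 20. WT spleen replicate 3 was also the highest library of its group for 6 of the 10 members and held 1769 CPM of haemoglobin RNA, and the part of that in Tnfrsf9 was not tested.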

How the results depend on the processing

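In the genotype comparisons, edgeR called 185 genes in spleen and 92 in mLN, against 64 and 47 with a log2 fold minimum of 1, 1422 and 913 without the count filter, 840 and 588 with DESeq2, 85 and 500 with all 15 samples in 1 fit, and 119 and 4 without the 3 libraries rich in haemoglobin RNA. Leaving out single libraries gave 12 to 324 genes in spleen and 4 to 117 in mLN. Of the members, 1 was called in spleen and 2 in mLN, against 0 and 1 with the fold minimum, 8 and 6 without the filter, 6 and 4 with DESeq2, 0 and 0 without the libraries rich in haemoglobin RNA, and 0 to 2 and 0 to 1 when single libraries were left out. With all 15 samples in 1 fit the count of members stayed at 1 and 2, with Tnfsf11 called in place of Cd40lg in spleen and Tnfsf14 in place of Tnfsf4 in mLN. With the replicate number as a block, where same-numbered samples share no more than a number, 17 genes and 0 members were called in spleen and 1 gene and 0 members in mLN. Between organs, 2980 genes in WT and 3602 in KO became 723 and 763 with the fold minimum, with 0 members each, and 1472 genes and 0 members in WT without the libraries rich in haemoglobin RNA. In WT, library totals gave 1 member, the replicate block 5 members, and leaving out a library 1816 to 2780 genes and 0 to 2 members. In KO, where same-numbered samples were not taken as paired, the block left the calls of Tnfsf8 and Tnfrsf4. For the interaction, 112 genes were called without the filter, 4 with DESeq2 and 3 with the replicate block, and 0 members in each fit. The causes were not tested.

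Signs turned only in differences that had not been called. Without the libraries rich in haemoglobin RNA the log2 fold changes became Tnfrsf9 0.49 for KO against WT in spleen, Tnfsf4 0.24, Lta 0.41 and Tnfrsf9 0.60 between organs in WT, and Tnfsf4 −0.16, Lta −0.31 and Ltb −0.11 for the interaction. With the replicate block they became Tnfsf4 0.51, Lta 0.28 and Tnfrsf9 0.49 between organs in WT and Tnfsf4 −0.35, Lta −0.14 and Ltb −0.16 for the interaction. Leaving out single libraries, they ranged over Ltb −0.036 to 0.32 and Tnfrsf9 −0.46 to 0.35 for KO against WT in spleen, Tnfsf4 −0.23 to 0.47, Tnf −0.20 to 0.42, Lta −0.39 to 0.33, Ltb −0.058 to 0.31 and Tnfrsf9 −0.31 to 0.51 between organs in WT, Tnfsf4 −0.13 to 0.26, Tnfsf14 −0.090 to 0.17, Tnf −0.14 to 0.17 and Lta −0.027 to 0.33 between organs in KO, and Tnfsf4 −0.38 to 0.32, Tnfsf11 −0.24 to 0.037, Tnf −0.38 to 0.23, Lta −0.22 to 0.49, Ltb −0.13 to 0.22, Tnfrsf4 −0.24 to 0.22 and Tnfrsf9 −0.75 to 0.061 for the interaction. Levels per group moved by less than 1 SD with library totals in place of TMM. Tnfsf4, at 20 to 155 counts per library, was the member with the least depth behind it.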
